A study of Homo sapiens with 112 samples.

Results

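Neuroendocrine marker genes were followed in 2 androgen-responsive prostate cancer cell lines, VCaP and LAPC4, that had been given the synthetic androgen R1881 with or without the antagonist darolutamide. The set comprised 9 genes, chosen by their symbols among the 58684 genes of the RNA-seq count table: CHGA, CHGB, SCG2, SCG3, SYP, ENO2, NCAM1, INSM1 and the repressor REST. All 9 were found. Cells of each line had been kept in hormone-depleted serum before they received DMSO, 1 nM R1881, the same R1881 with 500 nM darolutamide added (low), or the same R1881 with 2 µM darolutamide added (high), for 8 or 22 h. Thus both darolutamide groups also carried R1881, and DMSO was the only group without it. At 8 h, VCaP had 10 DMSO, 10 R1881, 4 low and 5 high libraries, and at 22 h 8, 9, 4 and 5. LAPC4 had 10, 10, 5 and 5 libraries at 8 h and 7, 10, 5 and 5 at 22 h. Both models are single cell lines, each from 1 patient's metastatic prostate cancer.

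Neuroendocrine cells store peptides and amines in dense-core vesicles and release them on stimulation. Chromogranins and secretogranins are the acidic proteins that fill these vesicles, synaptophysin is a vesicle membrane protein, and INSM1 is a zinc-finger factor of neuroendocrine differentiation. REST is a repressor that binds a DNA element near neuronal and neuroendocrine genes and holds many of them off in other cell types. In prostate cancer, markers of this kind are used by pathologists to recognize neuroendocrine differentiation, which can appear after androgen deprivation.

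The libraries held 12188500 to 25201700 counted reads each (rounded to 6 digits). ERG, which VCaP expresses from its TMPRSS2 fusion, had 1578 to 21554 reads in VCaP libraries and 0 to 1 in LAPC4 libraries. The androgen-induced gene KLK3 changed by 3.44 on the log2 scale with R1881 at 22 h in VCaP cells and by 1.65 in LAPC4 cells. Of 12 prostate luminal markers, 11 were in the table under the symbols searched, and all 11 exceeded a mean of 1 CPM (read counts scaled to a library of 1e+06 reads) in both lines. Immune markers summed to at most 0.813 CPM and endothelial markers to at most 3.66 CPM in any library. Stromal markers summed to 1.70 to 36.4 CPM in VCaP cells and 2.78 to 6.72 CPM in LAPC4 cells, with COL1A2 at 0 in every VCaP library. In VCaP cells 5 of the 8 stromal markers were tested. A gene can pass the filter for testing through the group where it is high. Of these 5, 4 fell with R1881 at 22 h, beside 77.4% of all genes called at an adjusted p under 0.05 (37.4% up, 40.0% down). With 2 µM darolutamide against R1881, 4 rose, beside 66.9% called (36.1% up, 30.8% down). LUM had 24.4 to 28.8 CPM with DMSO, 0.0999 to 0.332 with R1881 and 4.05 to 4.79 with 2 µM. The part of these genes in the results for the members was not tested. The sum of basal markers was 78.3 to 113 CPM in VCaP cells and 149 to 277 CPM in LAPC4 cells.

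The first question was how much of each gene the untreated lines held. In VCaP cells all 8 markers other than REST were detected in every library, and the label neuroendocrine marker therefore named transcripts that this line carries next to its luminal genes. With DMSO at 22 h, levels as RPKM, which is CPM per kilobase of exon (mean ± SD, n = 8), were highest for CHGA, at 53.5 ± 5.90. SCG3 followed at 22.9 ± 1.46, CHGB at 14.6 ± 0.725 and ENO2 at 8.96 ± 0.502 RPKM. REST stood in the middle of this order at 5.79 ± 0.324 RPKM, next to INSM1 at 4.84 ± 0.255. SYP had 3.13 ± 0.163, SCG2 2.62 ± 0.219 and NCAM1 0.727 ± 0.0426 RPKM. Neighbors in this order were separated by more than their SDs. At 8 h REST (4.70 ± 0.310 RPKM, n = 10) ranked below INSM1 (5.38 ± 0.472) and SYP (2.88 ± 0.240) below SCG2 (3.16 ± 0.398), and in both pairs the ranges of 1 SD overlapped.

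LAPC4 cells showed the opposite picture. CHGA, which encodes chromogranin A, had 3 reads in all over the 57 LAPC4 libraries, and 54 of these libraries had none. CHGB reached at most 2 reads in a library, NCAM1 2, INSM1 5, SCG2 5 and SCG3 6. These 6 genes did not pass the filter of 10 reads in 4 libraries, so that only SYP, ENO2 and REST could be tested in LAPC4 cells.

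With DMSO at 22 h, 22941 CHGA reads in the VCaP libraries stood against 0 in the LAPC4 libraries, so that CHGA was at least 8353-fold higher in VCaP cells when 3 reads over the LAPC4 group were taken as the floor. CHGB rested on 3 LAPC4 reads, with a ratio of 3388 (95% interval 1159 to 16431, counting error only). The ratio was 711 (438 to 1245) for SCG3, 359 (140 to 1319) for NCAM1, 239 (125 to 523) for INSM1 and 69.9 (42.2 to 125) for SCG2. SYP and ENO2, the latter encoding the glycolytic enzyme neuron-specific enolase, differed least among the markers, by 26.7 (22.4 to 32.1) and 7.85 (7.28 to 8.48). REST was the 1 member with more transcript in LAPC4 cells, at 0.518 (0.505 to 0.533) of the LAPC4 level in VCaP cells at 22 h and 0.459 (0.447 to 0.471) at 8 h. The fit of both lines took genes that passed the filter of 10 reads in 4 libraries in either line. CHGA, CHGB, NCAM1, INSM1, SCG2 and SCG3 entered it through VCaP alone, so their calls at 22 h with DMSO add no support to the ratios. SYP, ENO2 and REST passed in both lines and also differed, where 87.2% of 20892 genes tested did. REST differed by -0.96 on the log2 scale (SE 0.0574, adjusted p = 2.26e-30).

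**Figure D1:**
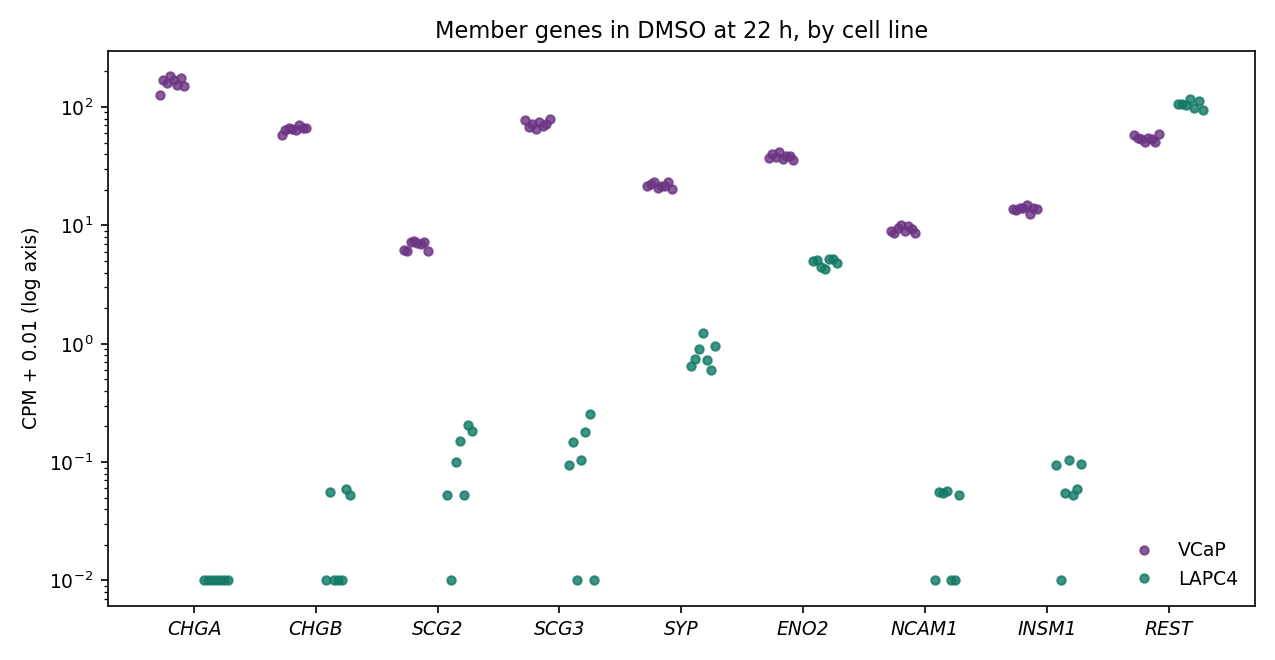
Level of each member gene in DMSO at 22 h in the single libraries of VCaP (8, violet) and LAPC4 (7, green), as CPM plus 0.01 on a log axis, scaled over both lines together. VCaP libraries lie above all LAPC4 libraries for 8 genes, and below them for REST. In the fit of both lines 87.2% of 20892 genes differed, and how many of all genes had fully separate libraries was not counted. Levels are to be compared between lines within a gene, since CPM does not correct for gene length.

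Promoter windows were available from RefSeq for 5 of the 9 members (CHGA, SYP, ENO2, SCG3 and REST, the last with 2 windows), on GRCh38.p14. The windows were searched on both strands for CAGCACC and GGACAGC, which are parts of the element that REST binds, and for AGAACA, a half-site of the androgen response element. Only SCG3 held both REST parts on the same strand, at 10 and 25 bases after its start site. A pair on the same strand, at any spacing and in any order, occurred in 173 of 35116 promoter windows (0.493%), CAGCACC in 7.75%, GGACAGC in 6.03% and AGAACA in 14.8%. Whether the parts in SCG3 are spaced as in the element that REST binds was not tested. The second REST window held GGACAGC at 170 bases before the start, and the other windows held none of the 3 motifs. A match describes letters and is no evidence of binding. Both windows with a match are printed because they belong to the repressor and to the marker with the element parts, with the matches in capitals.
SCG3, chr15:51681253-51681552, plus strand: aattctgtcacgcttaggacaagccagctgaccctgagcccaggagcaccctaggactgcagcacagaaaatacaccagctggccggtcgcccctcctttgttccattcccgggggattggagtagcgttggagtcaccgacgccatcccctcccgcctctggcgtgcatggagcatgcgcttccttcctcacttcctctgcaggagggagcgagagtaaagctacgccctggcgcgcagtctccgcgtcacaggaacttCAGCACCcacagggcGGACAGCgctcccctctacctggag
REST, chr4:56908660-56908959, plus strand: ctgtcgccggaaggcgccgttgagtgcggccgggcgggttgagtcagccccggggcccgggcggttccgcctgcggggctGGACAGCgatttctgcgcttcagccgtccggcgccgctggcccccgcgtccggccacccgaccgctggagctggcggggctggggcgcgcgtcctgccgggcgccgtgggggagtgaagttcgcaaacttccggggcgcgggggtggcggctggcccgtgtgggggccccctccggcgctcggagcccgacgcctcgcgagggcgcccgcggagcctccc

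Next, the response to R1881 was examined in VCaP cells, which asks how the androgen signal itself sets these genes. After 22 h, 6 members were lower with R1881 than with DMSO (CHGA, CHGB, SCG2, ENO2, NCAM1 and REST), 2 were higher (SYP and INSM1) and SCG3 was not called. In this comparison, 77.4% of all 19266 tested genes were called (37.4% up, 40.0% down), so the share of members called is near the background. The members' median log2 fold change was -0.68 beside -0.03 over all tested genes, and their median absolute value 1.00 beside 0.53. After 8 h, 4 were lower (CHGA, CHGB, SCG2 and NCAM1) and 3 higher (SYP, INSM1 and SCG3), beside 66.9% of all genes called (32.8% up, 34.1% down). At 8 h the call of SCG3 (0.17) was lost with control replicates 1 to 5 only (0.13), and that of SCG2 (-0.21) with control replicates 6 and above only (-0.19) and with the replicate number as a block (-0.22).

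Adding darolutamide was then compared with R1881 alone. With 2 µM at 22 h, CHGA, CHGB, ENO2 and NCAM1 were higher, SYP, INSM1 and SCG3 were lower, and SCG2 and REST were not called, beside 66.9% of all genes called (36.1% up, 30.8% down). With 500 nM at 22 h the calls were CHGA, ENO2 and NCAM1 up and SYP, INSM1 and SCG3 down, beside 53.0% of all genes (26.7% up, 26.4% down). At 8 h, 2 µM gave 6 calls (CHGB, ENO2 and SCG2 up, SYP, INSM1 and SCG3 down; background 52.1%, of which 25.9% up and 26.2% down) and 500 nM gave 3 (ENO2 and SCG2 up, SYP down; background 30.6%, of which 14.9% up and 15.7% down). Each of these 9 calls was lost in at least 1 alternative. The SCG3 call with 2 µM (-0.13, adjusted p = 0.0297) changed in 9 of 13 alternatives, DESeq2 (-0.12) and the omission of high-dose replicate 1 (-0.12), 3 (-0.10) or 4 (-0.12) among them. With 2 µM, SYP lost its call in 3 of 13 alternatives, CHGB without high-dose replicate 1 (0.10) and ENO2 without high-dose replicate 4 (0.11). With 500 nM, ENO2 lost its call without low-dose replicate 3 (0.11). With the replicate number as a block, no member was called for 500 nM at 8 h, and SYP, INSM1, SCG2 and SCG3 lost their calls for 2 µM while CHGA gained one (0.25). The R1881 libraries enter both the comparison with DMSO and the comparisons with darolutamide, so the 2 sets of fold changes are not independent and are given side by side. In bulk libraries, fewer cells of a type and less RNA per cell cannot be told apart.

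**Figure D2:**
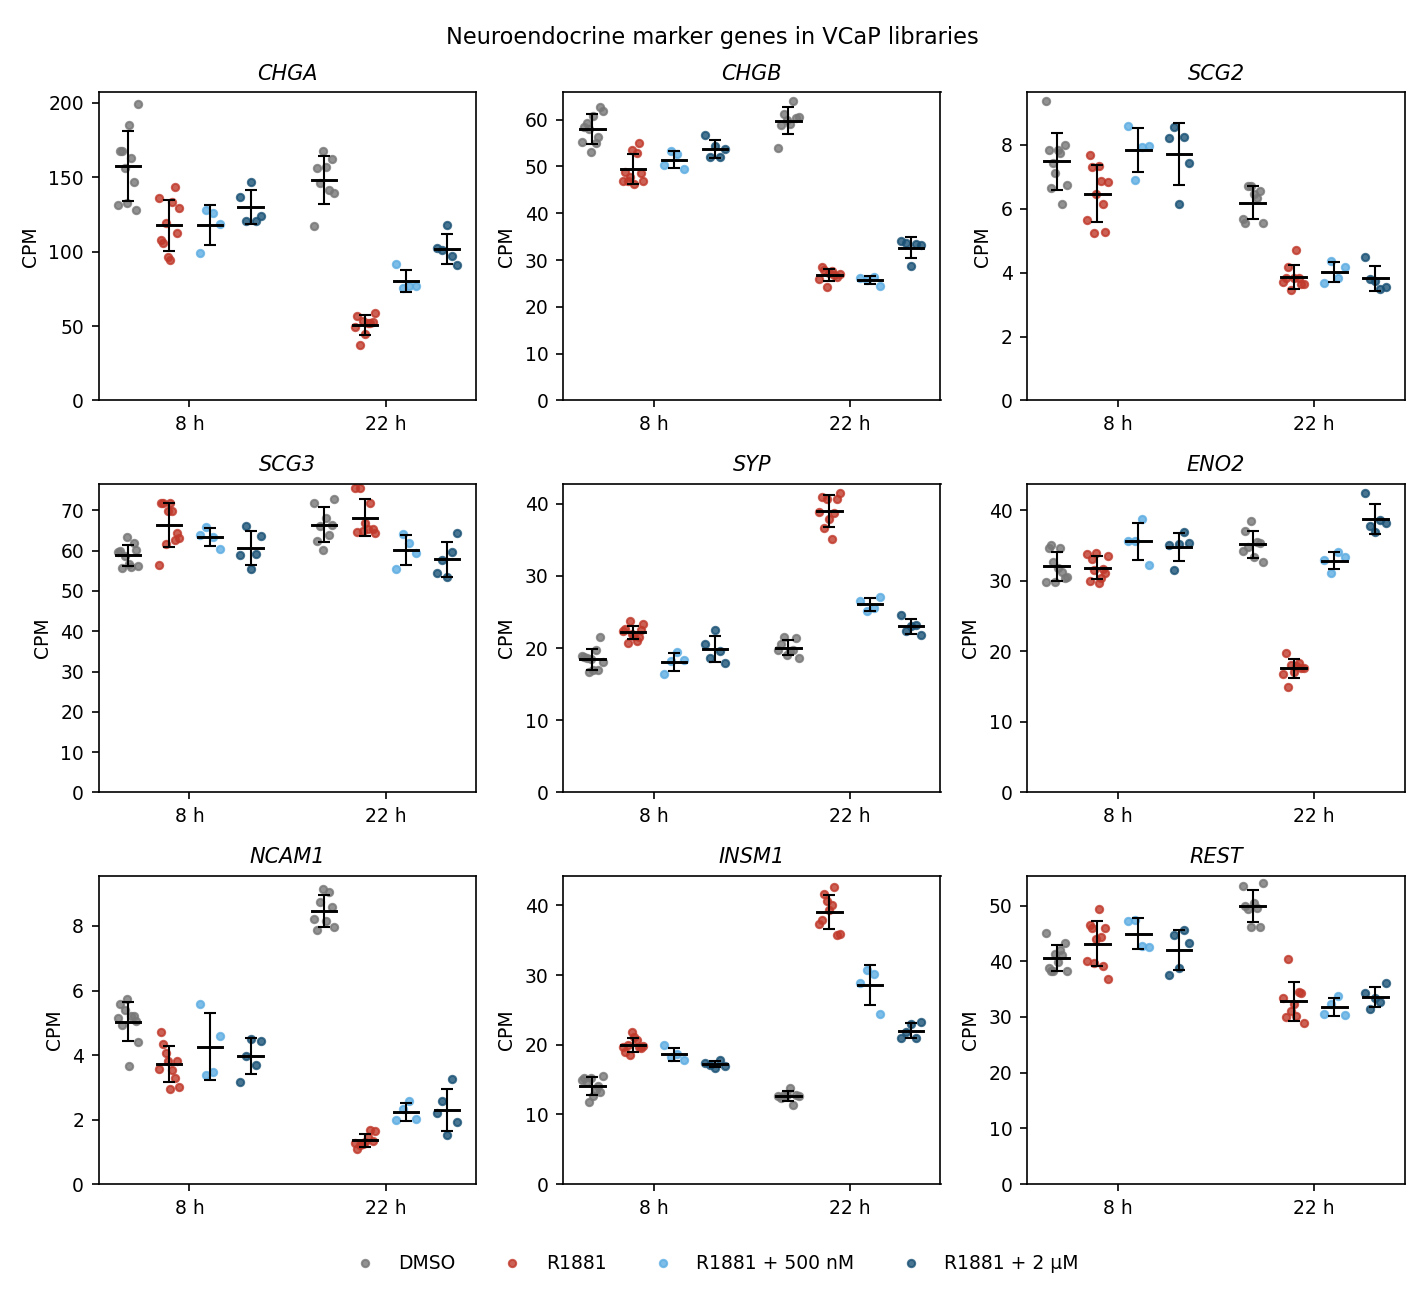
CPM of the 9 members in each VCaP library (points), by time and treatment, with the group mean and SD in black. All panels start at 0. With R1881 at 22 h, CHGA, CHGB, ENO2, NCAM1, SCG2 and REST lie below their DMSO libraries and SYP and INSM1 above them. In that comparison 77.4% of all genes were called, and how many had fully separate libraries was not counted.

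Among the granins, CHGA (chromosome 14, 92923150 to 92935285, GRCh38) moved most. Its DMSO libraries at 22 h had 117.2 to 168 CPM with a median of 151, and its R1881 libraries 37.2 to 58.9 with a median of 51.9. The 4 libraries with 500 nM darolutamide had 91.6, 75.8, 76.7 and 77.1 CPM, and the 5 libraries with 2 µM had 102, 101, 118, 97.0 and 91.0 CPM. These 2 groups lay between the R1881 and DMSO libraries, with overlap only at the upper end, where 1 library of the 2 µM group reached the lowest DMSO value. R1881 lowered CHGA by -1.54 on the log2 scale (SE 0.0864, adjusted p = 2.81e-23). It was 0.66 higher with 500 nM (SE 0.105, adjusted p = 2.99e-07) and 1.00 higher with 2 µM (SE 0.0963, adjusted p = 1.13e-13) than with R1881 alone. The 2 µM group remained below DMSO, by -0.54 (SE 0.0995, adjusted p = 5.09e-06).

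CHGB (chromosome 20, 5911510 to 5925353), which encodes the related chromogranin B, had 53.8 to 63.9 CPM with DMSO at 22 h (median 60.2) and 24.3 to 28.5 with R1881 (median 27.0). With 500 nM the libraries had 26.2, 25.8, 26.3 and 24.5 CPM, and with 2 µM 34.1, 33.6, 28.6, 33.5 and 33.3 CPM. Thus the low dose stayed within the R1881 range, and the high dose lay just above it and far below DMSO. The log2 change with R1881 was -1.15 (SE 0.0388, adjusted p = 1.78e-33). Against R1881 it was -0.06 with 500 nM (95% interval -0.16 to 0.04, adjusted p = 0.292) and 0.28 with 2 µM (SE 0.0447, adjusted p = 1.94e-07). CHGB at 2 µM was still -0.87 against DMSO (SE 0.0457, adjusted p = 9.99e-24), a larger distance than that of CHGA.

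SCG2 (chromosome 2, 223596940 to 223602361), the precursor of secretoneurin, did not move with darolutamide at 22 h in any way that the test detected. DMSO libraries had 5.54 to 6.72 CPM (median 6.38), and R1881 libraries 3.44 to 4.71 (median 3.81). The 500 nM libraries had 3.68, 4.36, 3.83 and 4.16 CPM, and the 2 µM libraries 4.50, 3.79, 3.75, 3.48 and 3.56 CPM, all of them within the R1881 range and below every DMSO library. R1881 lowered it by -0.68 (SE 0.0828, adjusted p = 1.24e-10), while 2 µM against R1881 gave -0.01 (95% interval -0.21 to 0.18, adjusted p = 0.952). At 8 h SCG2 was the member whose darolutamide groups stood highest against R1881, by 0.27 with 500 nM (adjusted p = 0.0181) and 0.25 with 2 µM (adjusted p = 0.0111), on 87 to 153 reads in the R1881 libraries. The call with 500 nM was lost in 5 of 12 alternatives, among them the omission of low-dose replicate 1 (0.23) or 4 (0.27), and that with 2 µM in 2 of 13, without high-dose replicate 2 (0.21) and with the replicate number as a block (0.30).

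SCG3 (chromosome 15, 51681492 to 51721026), whose product carries chromogranin A to secretory vesicles, hardly responded. With DMSO at 22 h it had 60.2 to 73.0 CPM (median 66.3) and with R1881 64.3 to 75.5 (median 65.4). The 2 µM libraries had 54.4, 57.6, 53.4, 59.7 and 64.3 CPM, and the 500 nM libraries 55.5, 64.1, 61.9 and 59.4 CPM. DMSO and R1881 libraries overlapped over most of their range, and the darolutamide libraries all lay below the lowest R1881 value, the closest by less than the rounding of these values. The R1881 effect was 0.04 (95% interval -0.06 to 0.13, adjusted p = 0.474), and 2 µM against R1881 gave -0.24 (SE 0.0525, adjusted p = 8.14e-05). Without replicate 1 of the 500 nM group, the call of SCG3 in that group (-0.18, adjusted p = 0.00629) was lost, with a value of -0.14.

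The remaining markers also split in direction. SYP (chromosome X, 49187815 to 49200218), the synaptic vesicle protein, had 18.6 to 21.6 CPM with DMSO at 22 h (median 19.8) and 35.1 to 41.5 with R1881 (median 38.9). With 500 nM it had 26.6, 25.1, 25.5 and 27.1 CPM and with 2 µM 24.6, 22.3, 23.0, 23.2 and 21.8 CPM. All libraries of both doses lay between the DMSO and R1881 libraries. The changes were 0.96 with R1881 (SE 0.0445, adjusted p = 5.75e-27), -0.58 with 500 nM (SE 0.0549, adjusted p = 1.24e-13) and -0.76 with 2 µM (SE 0.0510, adjusted p = 1.12e-19). SYP with 2 µM stayed 0.20 above DMSO (SE 0.0520, adjusted p = 0.000932).

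ENO2 (chromosome 12, 6913745 to 6923698) returned furthest. Its DMSO libraries had 32.6 to 38.5 CPM (median 35.1) and its R1881 libraries 14.9 to 19.8 (median 17.7). With 500 nM the values were 33.0, 31.2, 34.0 and 33.3 CPM, and with 2 µM 42.4, 37.8, 36.9, 38.7 and 38.2 CPM, so that every darolutamide library exceeded every R1881 library and the high-dose libraries lay in the upper part of the DMSO range or above it. R1881 lowered ENO2 by -0.998 (SE 0.0444, adjusted p = 8.95e-28), and against R1881 it was 0.90 higher with 500 nM (SE 0.0531, adjusted p = 1.53e-21) and 1.14 higher with 2 µM (SE 0.0490, adjusted p = 4.78e-28). At 2 µM it was 0.14 above DMSO (SE 0.0494, adjusted p = 0.0115), a call that was lost, at 0.09, without replicate 1 of the high-dose group. It was also lost at 0.13 with the replicate number as a block and at 0.10 with control replicates 1 to 5 only.

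NCAM1 (chromosome 11, 112961275 to 113278436), the neural cell adhesion molecule, showed the largest R1881 effect of the 9 genes at the lowest level. DMSO libraries at 22 h had 7.87 to 9.16 CPM (median 8.40), whereas R1881 libraries had 1.07 to 1.67 (median 1.29), which were 19 to 34 reads. The 500 nM libraries had 1.99, 2.33, 2.58 and 2.03 CPM and the 2 µM libraries 2.20, 2.57, 1.54, 3.26 and 1.92 CPM. Both doses remained far below DMSO, and 1 of the 2 µM libraries lay within the R1881 range. The change with R1881 was -2.64 (SE 0.113, adjusted p = 1.66e-28), and against R1881 NCAM1 was 0.72 higher with 500 nM (SE 0.156, adjusted p = 8.59e-05) and 0.77 higher with 2 µM (SE 0.143, adjusted p = 4.35e-06). The 2 µM group stayed at -1.87 against DMSO (SE 0.125, adjusted p = 2.46e-19). Antisense genes share some exon bases with NCAM1, as also with SYP and REST, and the strand setting of the counting is not given in the sources used here.

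INSM1 (chromosome 20, 20368104 to 20370949), the differentiation factor, rose most. It had 11.3 to 13.8 CPM with DMSO at 22 h (median 12.7) and 35.7 to 42.7 with R1881 (median 39.3). With 500 nM the libraries had 28.8, 30.8, 30.2 and 24.4 CPM and with 2 µM 21.0, 21.9, 23.0, 21.0 and 23.3 CPM. The 4 groups did not overlap, in the order DMSO, high dose, low dose and R1881. The changes were 1.63 with R1881 (SE 0.0485, adjusted p = 5.25e-36), -0.45 with 500 nM (SE 0.0570, adjusted p = 1.19e-09) and -0.82 with 2 µM (SE 0.0536, adjusted p = 3.77e-20). At 2 µM INSM1 remained 0.80 above DMSO (SE 0.0554, adjusted p = 1.01e-18). INSM1 was also the only member whose DMSO and R1881 libraries were fully apart at 8 h, with 11.8 to 15.6 against 18.5 to 21.8 CPM. The change was 0.50 (SE 0.0443, adjusted p = 4.10e-15). How many of all genes were fully apart was not counted, and 66.9% of them were called in this comparison.

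REST (chromosome 4, 56907876 to 56966808), the repressor of many of these markers, fell with R1881 at 22 h and was not moved by darolutamide. DMSO libraries had 46.2 to 54.1 CPM (median 49.8) and R1881 libraries 28.9 to 40.4 (median 32.4). The 500 nM libraries had 30.6, 32.3, 33.8 and 30.3 CPM and the 2 µM libraries 34.3, 31.5, 33.3, 32.7 and 36.2 CPM. No library with R1881, with or without darolutamide, reached the lowest DMSO library. The R1881 effect was -0.61 (SE 0.0532, adjusted p = 2.20e-15). Against R1881, 500 nM gave -0.05 (95% interval -0.18 to 0.09, adjusted p = 0.589) and 2 µM 0.04 (95% interval -0.09 to 0.16, adjusted p = 0.627), and the 2 µM group was -0.57 against DMSO (SE 0.0627, adjusted p = 1.47e-11). At 8 h REST did not differ detectably between R1881 and DMSO (0.09, 95% interval -0.01 to 0.18, adjusted p = 0.108).

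**Figure D3:**
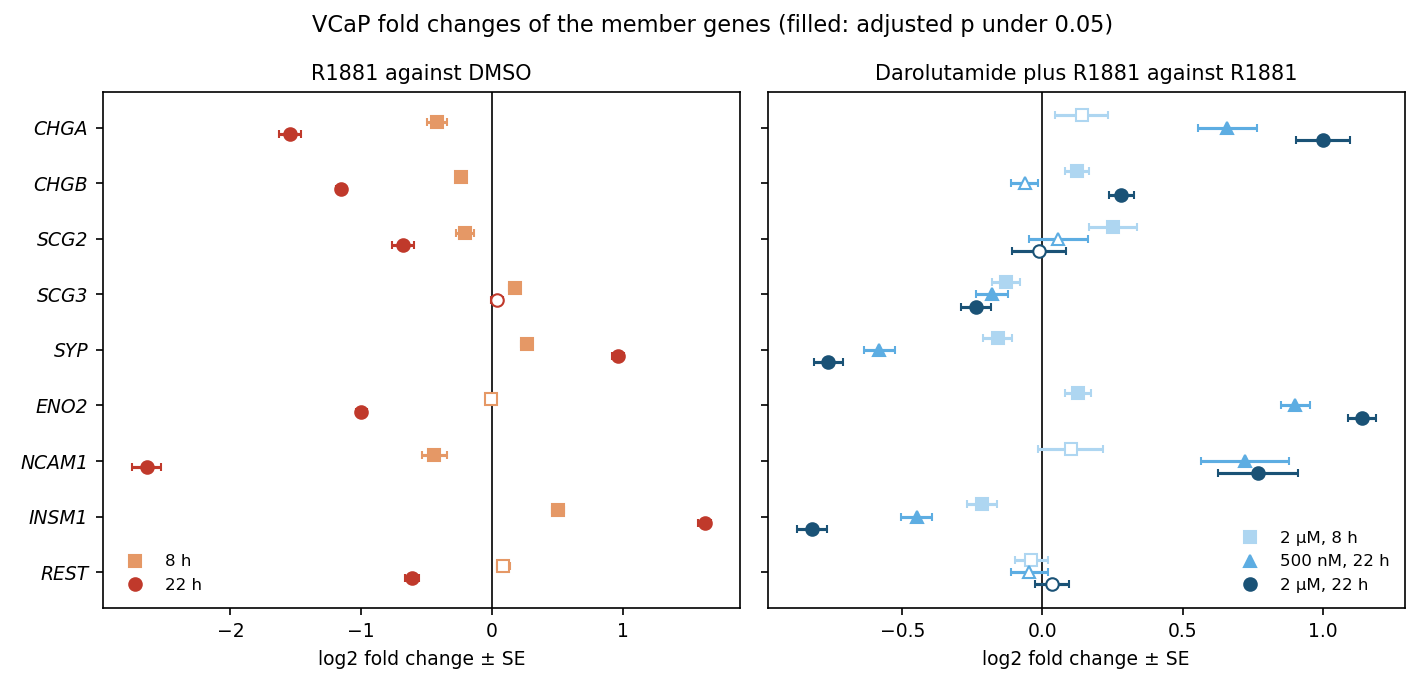
Log2 fold changes (± SE) of the members in VCaP cells, for R1881 against DMSO at 8 and 22 h (left) and for darolutamide plus R1881 against R1881 (right). Filled symbols passed an adjusted p under 0.05. SYP and INSM1 lie right of 0 with R1881 and left of 0 with darolutamide, CHGA, CHGB, ENO2 and NCAM1 lie on the other sides at 22 h with 2 µM, and SCG2 and REST lie at 0 with 2 µM at 22 h.

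The 2 darolutamide doses were compared directly. At 22 h, 5 members differed between 2 µM and 500 nM, beside 20.2% of all genes (10.4% up, 9.75% down): CHGA (0.34, adjusted p = 0.0293), CHGB (0.34, adjusted p = 1.56e-06) and ENO2 (0.24, adjusted p = 0.00171) were higher with 2 µM, and INSM1 (-0.37, adjusted p = 5.51e-06) and SYP (-0.18, adjusted p = 0.0252) were lower. NCAM1, SCG2, SCG3 and REST did not pass, with differences of 0.05 (95% interval -0.28 to 0.37), -0.07 (-0.30 to 0.16), -0.06 (-0.18 to 0.07) and 0.08 (-0.07 to 0.23). Calls of CHGA and SYP rested on single libraries: CHGA was lost without replicate 2, 3 or 4 of the low-dose group or replicate 3 of the high-dose group, and SYP without replicate 4 of the low-dose group or replicate 2, 4 or 5 of the high-dose group. Without low-dose replicate 4 the count was 3. At 8 h no member was called between the doses by edgeR or DESeq2, and 1 (SYP, 0.13) had an unadjusted p under 0.05 by edgeR, beside 17.6% of all genes called (7.53% up, 10.0% down).

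Compared with DMSO, 2 µM darolutamide plus R1881 left all 9 members called at 22 h, beside 59.0% of all genes (30.5% up, 28.5% down), 6 lower (CHGA, CHGB, SCG2, SCG3, NCAM1 and REST) and 3 higher (SYP, ENO2 and INSM1). The largest distances were those of NCAM1 and CHGB and the smallest that of ENO2. At 8 h, 4 were called, beside 27.5% of all genes (15.4% up, 12.0% down): INSM1 was 0.29 higher and CHGA, CHGB and NCAM1 were -0.28, -0.11 and -0.34. Only INSM1 kept its call in every fit without 1 high-dose replicate, and without replicate 4 of that group the count was 1.

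The R1881 effect was tested for a change between 8 and 22 h. It differed for 8 of the 9 members, beside 60.4% of all genes (28.1% up, 32.3% down). It was more negative at 22 h for NCAM1 (by -2.20, SE 0.149, adjusted p = 3.65e-19), CHGA (-1.12), ENO2 (-0.99), CHGB (-0.92), REST (-0.70) and SCG2 (-0.48), and more positive for INSM1 (1.12) and SYP (0.70). For SCG3 it was -0.14 (95% interval -0.26 to -0.01, adjusted p = 0.0512). ENO2 and REST, whose R1881 effects at 8 h were -0.01 and 0.09, thus acquired theirs between the 2 times. The effect of 2 µM darolutamide differed between the times for 6 members, beside 48.5% of all genes (27.4% up, 21.2% down), with ENO2 (1.01), CHGA (0.86), NCAM1 (0.67) and CHGB (0.16) more positive at 22 h and INSM1 (-0.61) and SYP (-0.60) more negative. The difference of CHGB lost its call in 9 of 14 alternatives and was 0.096 with the replicate number as a block.

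Time in vehicle moved some members as well. Between 8 and 22 h of DMSO, 7 members were called, beside 29.8% of all genes (15.9% up, 13.9% down). NCAM1 had 3.65 to 5.72 CPM at 8 h (median 5.17) and 7.87 to 9.16 at 22 h, without overlap, a difference of 0.75 (SE 0.0926, adjusted p = 2.38e-09). REST had 38.2 to 45.2 CPM at 8 h, below all 22 h libraries, a difference of 0.30 (SE 0.0512, adjusted p = 4.38e-06). SCG3 (0.18), ENO2 (0.13) and SYP (0.12) were also higher and SCG2 (-0.27) and INSM1 (-0.16) lower at 22 h. With control replicates 1 to 5 only, 3 members were called.

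In LAPC4 cells, no treatment comparison called any of the 3 members tested, with edgeR or DESeq2. The share of all genes called was 13.3% for R1881, 5.89% for 500 nM and 10.5% for 2 µM against R1881, 0.258% between the doses and 0.0165% for 2 µM against DMSO at 22 h. At 8 h these shares were 2.64%, 0.626%, 1.54%, 0.0275% and 0.0110%, and between the times 3.21% for the R1881 effect and 1.77% for that of 2 µM. At an unadjusted p under 0.05, REST passed for R1881 at 22 h, and ENO2 for R1881 and for 2 µM against R1881 at 8 h. At 22 h, REST had 102 to 124 CPM with DMSO (median 113) and 89.6 to 116.7 with R1881 (median 104). The 500 nM libraries had 104, 119.8, 109, 116.97 and 99.5 CPM and the 2 µM libraries 103, 108, 105, 115 and 96.6 CPM. All 4 groups overlapped. R1881 gave -0.11 (95% interval -0.21 to -0.01, unadjusted for the number of genes, adjusted p = 0.143), and 2 µM against R1881 gave 0.02 (95% interval -0.09 to 0.13, adjusted p = 0.926). LAPC4 libraries numbered 6 and above differed from those numbered 1 to 5 in 3929 genes, REST among them (-0.13, adjusted p = 0.000283). The R1881 effect on REST was -0.05 when only control libraries 1 to 5 entered and -0.15 when only those numbered 6 and above did. At 22 h the DMSO group ends at number 7 and the R1881 group at 10, so the -0.15 rests on few DMSO libraries. The difference between the number ranges thus also enters the main R1881 comparison. The darolutamide groups hold only numbers 1 to 5, so it enters their comparisons with DMSO and R1881 as well. For 2 µM against R1881, REST gave -0.06 with control libraries 1 to 5 and 0.09 with those numbered 6 and above.

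ENO2 in LAPC4 cells had 4.55 to 5.56 CPM with DMSO at 22 h (median 5.24) and 4.37 to 5.75 with R1881 (median 4.88). The 500 nM libraries had 5.25, 4.38, 4.15, 4.19 and 4.43 CPM and the 2 µM libraries 5.07, 4.41, 4.92, 3.36 and 5.25 CPM, again with overlap of all groups. The R1881 effect was -0.06 (95% interval -0.24 to 0.11, adjusted p = 0.742) and that of 2 µM -0.11 (95% interval -0.31 to 0.09, adjusted p = 0.637). ENO2 was the only member called in LAPC4 cells, and only for time in DMSO: it had 2.59 to 4.25 CPM at 8 h, below all 22 h libraries, a difference of 0.62 (SE 0.0902, adjusted p = 2.57e-07), where 22.1% of all genes were called.

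SYP had 12 to 26 reads per LAPC4 library with DMSO at 22 h, or 0.621 to 1.30 CPM, and 0.520 to 1.12 CPM with R1881. Its R1881 effect was -0.20 (95% interval -0.59 to 0.20, adjusted p = 0.630). At 22 h, 2 µM against R1881 gave -0.10 (95% interval -0.56 to 0.36, adjusted p = 0.886). Over all treatment comparisons and their changes with time, SYP, ENO2 and REST had adjusted p values of 0.143 to 1.

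**Figure D4:**
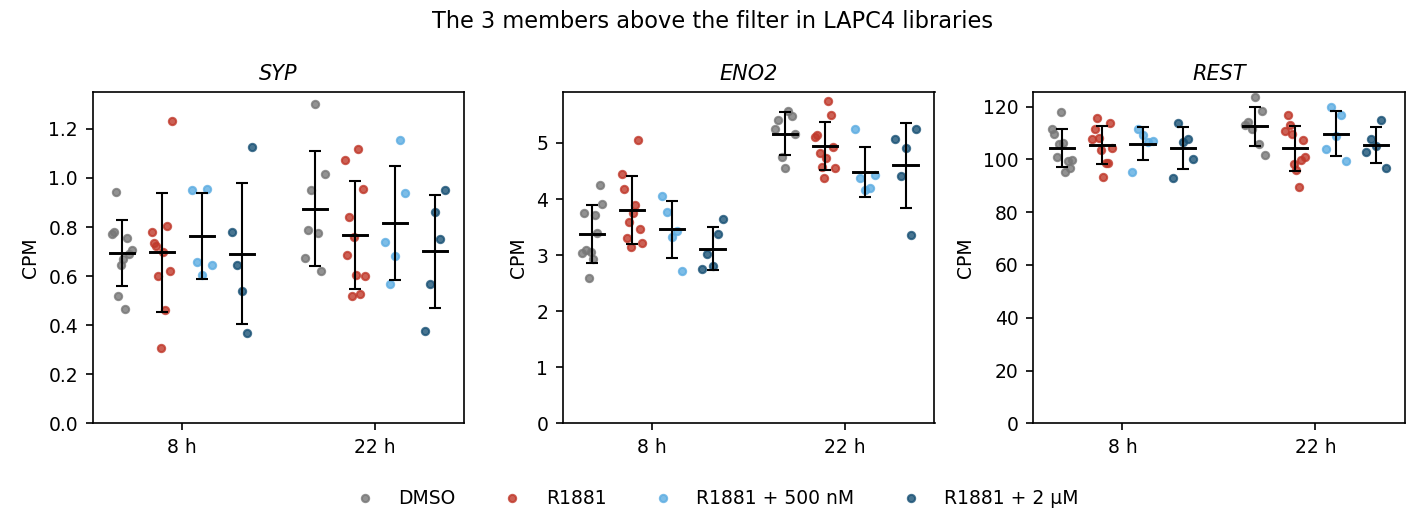
CPM of SYP, ENO2 and REST in each LAPC4 library (points), by time and treatment, with the group mean and SD in black. All panels start at 0. The 4 treatments overlap at each time, and ENO2 is higher at 22 h than at 8 h with DMSO.

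The R1881 effect at 22 h was tested for a difference between the lines, where 58.6% of 20892 genes differed. Of the members, only SYP, ENO2 and REST had enough LAPC4 reads to pass the filter there. For the others a missing call does not show that the lines responded alike. It was higher in VCaP cells for SYP (by 1.20, SE 0.171, adjusted p = 1.28e-09) and lower for ENO2 (-0.90, SE 0.0916, adjusted p = 1.41e-15) and REST (-0.46, SE 0.0779, adjusted p = 1.66e-07). NCAM1 also passed (-2.55, adjusted p = 0.0208), on at most 2 reads in a LAPC4 library, and lost its call when the controls were limited to replicates 1 to 5 (-2.48) or to those numbered 6 and above (-2.64). The effect of 2 µM darolutamide at 22 h differed for ENO2 (1.18, SE 0.104, adjusted p = 1.15e-18) and SYP (-0.74, SE 0.203, adjusted p = 0.00170), but not detectably for REST (-0.06, adjusted p = 0.652), beside 49.0% of all genes. At 8 h, 48.6% of all genes differed in the R1881 effect, and of the members ENO2 (-0.22, adjusted p = 0.0289) and, on at most 5 reads in a LAPC4 library, SCG2 (-1.64, adjusted p = 0.0105). Neither of these 8 h differences was called when the controls were limited in the same ways.

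The members were set beside wider lists of related genes, which were written from general knowledge and contain the members that belong to them. Of 21 dense-core vesicle genes 17 were tested in VCaP cells, and with R1881 at 22 h 4 rose and 7 fell, beside 77.4% of all genes called (37.4% up, 40.0% down). CPE, which trims prohormones, rose by 1.19 (adjusted p = 1.07e-33), from 43.3 to 52.2 CPM with DMSO to 97.6 to 122 with R1881. RAB27A, a GTPase of vesicle docking, rose by 1.68 (adjusted p = 6.13e-30). The vesicular monoamine transporter SLC18A1 fell by -1.88 (adjusted p = 7.51e-19) and was 1.66 higher with 2 µM than with R1881 alone (adjusted p = 7.08e-15). SYT4, a vesicle calcium-sensor relative, fell by -0.55 with R1881 and was a further -0.34 lower with 2 µM.

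Of 24 synaptic and neuronal surface genes 21 were tested, 4 rose and 12 fell with R1881 at 22 h, beside 77.4% of all genes called (37.4% up, 40.0% down), and 13 rose and 4 fell with 2 µM against R1881, beside 66.9% (36.1% up, 30.8% down). NCAM2, the paralog of NCAM1, had 4.50 to 7.12 CPM with DMSO, 0 to 0.574 with R1881 and 1.83 to 2.29 with 2 µM darolutamide, changes of -4.56 (adjusted p = 2.65e-30) and 2.94 (adjusted p = 1.66e-17). The neurofilament light chain NEFL fell by -1.39 and DPYSL3, of axon guidance, by -1.13. In LAPC4 cells NCAM2 had 281 to 350 CPM with DMSO at 22 h and did not respond detectably (-0.04 with R1881, adjusted p = 0.731), so the line without NCAM1 carried its paralog at a high level.

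Of 24 neuroendocrine transcription factor genes 14 were tested in VCaP cells, of which 3 rose and 7 fell with R1881 at 22 h (77.4% of all genes called, 37.4% up and 40.0% down), and 9 rose and 2 fell with 2 µM (66.9% called, 36.1% up and 30.8% down). INSM2, the paralog of INSM1, fell by -2.81 (adjusted p = 9.04e-24) where INSM1 rose, from 3.49 to 6.41 CPM with DMSO to 0.399 to 1.07 with R1881. MYT1 fell by -0.71, and ONECUT2 rose by 0.58 and was not called with 2 µM (0.05, adjusted p = 0.466). In LAPC4 cells 10 of these genes were tested. RUNX1T1 fell there with R1881 by -0.52 (adjusted p = 3.04e-12), and SOX11, at 126 to 155 CPM with DMSO, rose by 0.19 (adjusted p = 0.00338).

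A list of corepressor, turnover and splicing partners of REST counts REST itself, and all 17 of its genes were tested in VCaP cells. With R1881 at 22 h, 5 rose and 6 fell, REST among the latter, beside 77.4% of all genes called (37.4% up, 40.0% down). The median absolute log2 fold change was 0.23, beside 0.53 over all genes. At 8 h, 9 rose and 4 fell, beside 66.9% (32.8% up, 34.1% down), and the median absolute value was 0.37, beside 0.33. At 22 h, the deacetylase HDAC1 rose by 0.54 (adjusted p = 3.38e-24) and the deubiquitinase USP7 by 0.46 (adjusted p = 4.46e-20), while the corepressors RCOR3 and RCOR2 fell by -0.67 (adjusted p = 4.02e-21) and -1.27 (adjusted p = 1.25e-10). SRRM4, a splicing factor that can switch REST to a truncated form and that was picked after its values were seen, had 134 to 278 reads in VCaP libraries with DMSO at 22 h and 0 in those of LAPC4.

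Of 26 genes known as REST targets 23 were tested in VCaP cells, and with R1881 at 22 h 3 rose and 13 fell, beside 77.4% of all genes called (37.4% up, 40.0% down), with a median of -0.52 beside -0.03 over all genes. This list counts members too: CHGA, CHGB and SCG2 were among the genes that fell and SYP among those that rose. With 2 µM against R1881, 12 rose and 4 fell, beside 66.9% (36.1% up, 30.8% down). REST itself fell with R1881 and was not called with 2 µM. GRIA2, a glutamate receptor subunit, had 60.4 to 81.2 CPM with DMSO, 3.21 to 5.33 with R1881, 14.0 to 17.5 with 500 nM and 24.8 to 30.6 with 2 µM. Its changes were -4.11 with R1881 (adjusted p = 1.32e-47) and 2.69 with 2 µM (adjusted p = 5.17e-36). UNC13A, a synaptic priming factor, rose by 1.34 and GDAP1 fell by -0.65. In LAPC4 cells 14 targets were tested and 2 fell with R1881, beside 13.3% of all genes called in either direction. These were GRIA2, lower by -0.61 (adjusted p = 7.20e-17), and BDNF, lower by -0.81 (adjusted p = 2.62e-16), and both were higher with 2 µM, by 0.54 and 0.63.

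Only 5 of 16 neuroendocrine peptide genes were tested in VCaP cells. Neurotensin (NTS) had 10.4 to 14.7 CPM with DMSO at 22 h, 0.199 to 1.01 with R1881 and 0.497 to 0.958 with 2 µM, a fall of -4.01 with R1881 (adjusted p = 6.68e-30) and no call with 2 µM (-0.04, adjusted p = 0.899). NPY had 196 to 263 CPM with DMSO and 174 to 206 with R1881, but 438 to 556 with 2 µM, 1.35 above R1881 (adjusted p = 1.11e-24). GAL, which encodes galanin, rose by 0.79 with R1881 and was another 0.32 higher with 2 µM (adjusted p = 0.0127), a call that was lost without replicate 3 of the high-dose group (0.20) and with control replicates 6 and above (0.18).

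**Figure D5:**
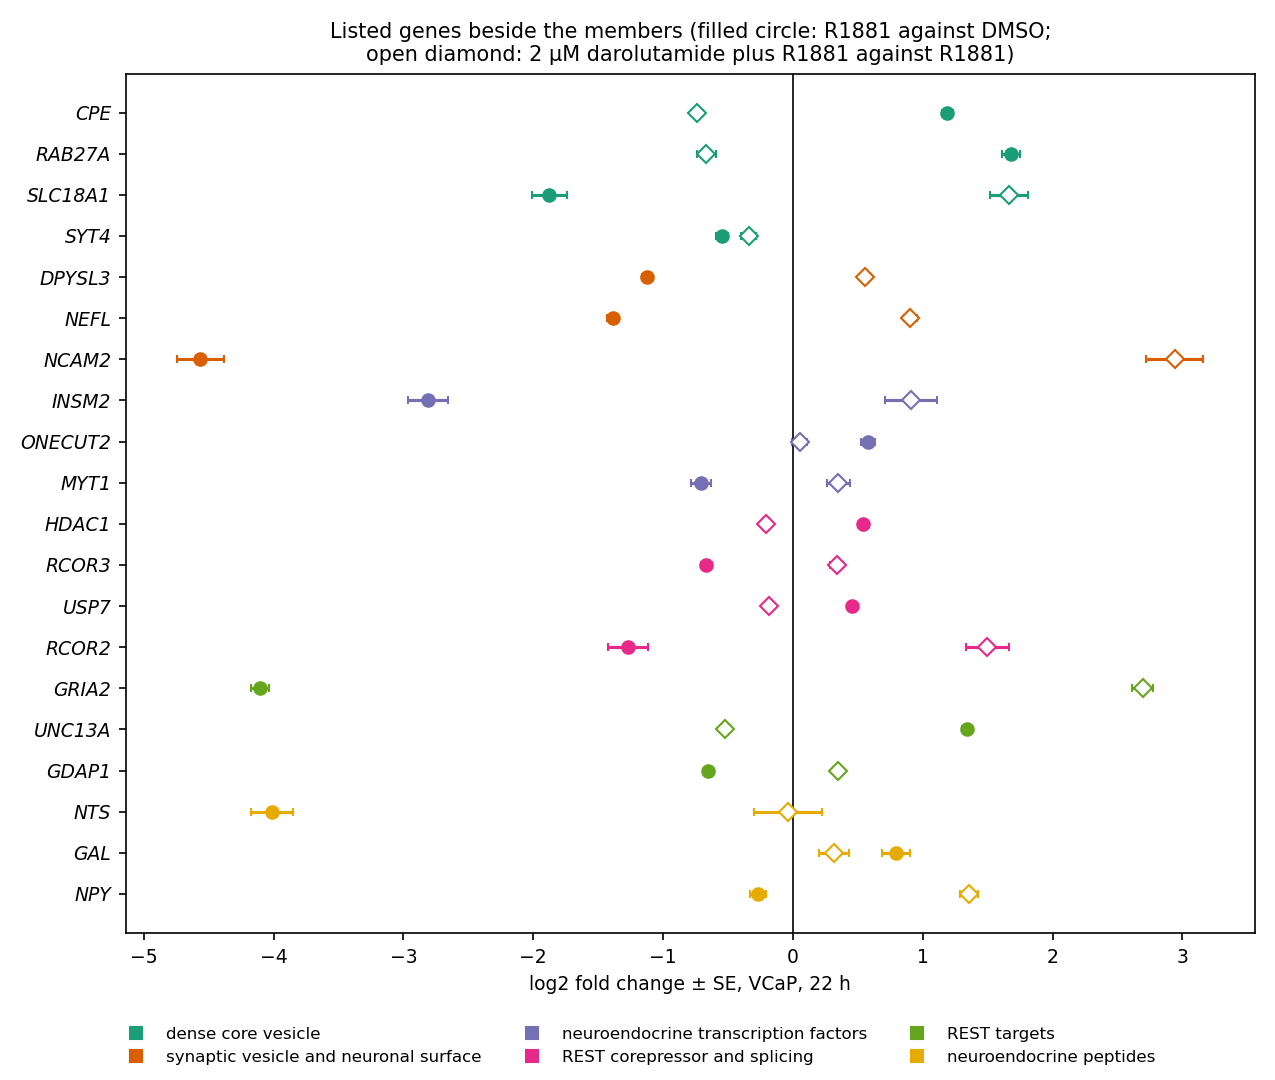
Log2 fold changes (± SE) in VCaP cells at 22 h of the genes reported from the lists, as filled circles for R1881 against DMSO and open diamonds for 2 µM darolutamide plus R1881 against R1881, colored by list. Most pairs lie on opposite sides of 0, while SYT4 (-0.55 and -0.34) and GAL (0.79 and 0.32) lie on the same side and the diamonds of NTS and ONECUT2 lie near 0.

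Lastly, the patterns over the 8 VCaP group means were compared as a description, with n = 8 means that share their libraries. CHGA ran with NCAM1 (Pearson r = 0.913) and CHGB (0.894) and against INSM1 (-0.978) and SYP (-0.949). REST ran with CHGB (0.930) and NCAM1 (0.908), and SCG3 ran weakly with every other member (-0.594 to 0.418). Among well-expressed genes that are no members, those most like CHGA were C17orf80 (0.998), GRIA2 (0.997) and FTL (0.996), and those most like REST were PRUNE (0.988), YIPF4 (0.987) and ATXN3 (0.985). In LAPC4 cells the genes most like REST were SUPT20H (0.966), CTDSP2 (0.957) and ZFC3H1 (0.954), where no treatment comparison called REST. These are the highest values of 9626 genes searched in VCaP and 9101 in LAPC4. Whether they exceed what a search of this size gives was not tested. Within VCaP groups, the spread between libraries was smallest for CHGB, with a median coefficient of variation of 4.70%, and largest for NCAM1, with 14.4%, which had the fewest reads.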

How the data were processed

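RNA was measured by stranded, single-end mRNA sequencing in 55 VCaP and 57 LAPC4 libraries. The authors deposited 1 table of raw read counts per gene, unit counts, without normalization. The submitters' processing notes name bcl2fastq 2.17, STAR, Subread featureCounts, DESeq2 and GRCh38. The annotation and the strand setting of the counting are not given in the sources used here, and a counting setting could change genes with antisense partners.

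A gene was tested in a line when 4 or more of its libraries had 10 reads or more (19266 genes in VCaP, 18204 in LAPC4). Library sizes were scaled by TMM, and the 8 groups of a line were fitted together with glmQLFit and glmQLFTest of edgeR 4.0.16 in R 4.3.3. A call is an adjusted p (Benjamini-Hochberg, all tested genes) under 0.05. Each SE was derived from the fold change and its F statistic, and 95% intervals are not adjusted for the number of genes. A fit of both lines tested differences between them, on genes that passed the filter in either line. CPM and RPKM use TMM sizes, RPKM with exon lengths of GENCODE 44, the source of all positions (GRCh38). Ratios between lines use summed reads, with exact intervals for counting error only and a floor of 3 reads. The procedure was tested on simulated data.

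The members and gene lists were chosen with earlier results of these data known. The genes named are the members, up to 4 genes per list and line with the smallest adjusted p for R1881 at 22 h among those called and above 1 CPM in a group, KLK3, FKBP5 and ERG, and the 3 genes most like REST and the highest member. Some genes that this rule selects are not reported here. The labels do not say that libraries came from separate cultures, and the study's methods give 5 biological replicates per condition where the DMSO and R1881 groups hold 7 to 10, so n may exceed the number of cultures and p-values measure the spread between these libraries. Alternatives were DESeq2 1.42.0, no filter, filterByExpr, only the compared groups, the first principal component of the deviations from group means as a covariate, control replicates 1 to 5 or 6 and above, the replicate number as a block and the omission of each darolutamide replicate. No VCaP gene was called between libraries numbered 6 and above and those numbered 1 to 5 by edgeR (916 at an unadjusted p under 0.05), against 3929 LAPC4 genes. No libraries of a group agreed within sampling noise.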

Additional observations from a re-analysis of the deposited data

Results flagged for a closer look

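In 96 groups of 4 to 10 libraries, 5 single libraries of a member lay far from the rest of their group by Dixon's ratio, which chance gives in about 1 in 20 groups. CHGA had 91.6 CPM in replicate 1 of the VCaP 500 nM group at 22 h, beside 75.8 to 77.1 in the other 3. CHGB had 28.6 CPM in replicate 3 of the VCaP 2 µM group at 22 h, beside 33.3 to 34.1. REST had 40.4 CPM in replicate 3 of the VCaP R1881 group at 22 h, beside 28.9 to 34.4 in the other 8. In LAPC4 cells, ENO2 had 5.25 CPM in replicate 1 of the 500 nM group at 22 h, beside 4.15 to 4.43, and REST 95.3 CPM in replicate 1 of the 500 nM group at 8 h, beside 107 to 111.

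By interaction tests, 22 effects on members differed between times or lines. Between the times in VCaP, 8 of 9 members were called for R1881, beside 60.4% of all genes, and 6 for 2 µM, beside 48.5%. Between the lines, 4 of 9 were called for R1881 at 22 h, beside 58.6% of all genes. At 8 h these were 2, beside 48.6%, and for 2 µM at 22 h 2, beside 49.0%. Only SYP, ENO2 and REST passed the filter in LAPC4, so for the other members a missing call does not show that the lines responded alike. The VCaP effect of R1881 at 22 h minus that at 8 h was -1.12 for CHGA, -0.92 for CHGB, 0.70 for SYP, -0.99 for ENO2, -2.20 for NCAM1, 1.12 for INSM1, -0.48 for SCG2 and -0.70 for REST. The same difference for 2 µM darolutamide was 0.86 for CHGA, 0.16 for CHGB, -0.60 for SYP, 1.01 for ENO2, 0.67 for NCAM1 and -0.61 for INSM1. That of CHGB lost its call without replicate 1 (0.12), 2 (0.13), 4 (0.13) or 5 (0.14) of the 22 h group or replicate 2 or 4 (0.15 each) of the 8 h group, without a filter (0.15), with control replicates 1 to 5 only (0.12) and in the blocked fit (0.096). The R1881 effect in VCaP minus that in LAPC4 at 22 h was 1.20 for SYP, -0.90 for ENO2, -0.46 for REST and -2.55 for NCAM1, which had at most 2 reads in a LAPC4 library. At 8 h it was -0.22 for ENO2 and -1.64 for SCG2. For 2 µM darolutamide at 22 h it was -0.74 for SYP and 1.18 for ENO2.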

How the results depend on the processing

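Of 280 counts of called members under alternatives, 269 stayed within 1.5 times the reported count and 11 moved, and the cause was not tested. A count of 0 that stayed at 0 was scored as unmoved. LAPC4, with 3 members tested, had 0 calls in every treatment comparison, so its counts had little room to move. For VCaP, 500 nM against R1881 at 8 h gave 1 call without a filter and 2 to 3 when a replicate was left out (3 reported). For 2 µM against DMSO at 8 h there were 2 with control replicates 1 to 5 and 1 to 3 when a replicate was left out (4 reported). DMSO at 22 h against 8 h gave 3 with control replicates 1 to 5 (7 reported), and 2 µM against 500 nM at 22 h gave 3 to 5 without single replicates (5 reported). With the first principal component as a covariate, 1 member (REST) was called for R1881 in LAPC4 at 22 h (0 reported). The R1881 effect at 8 h differed between lines for 0 members when the controls were limited to replicates 1 to 5, and for 0 when limited to those numbered 6 and above (2 reported).

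Deviations from the group mean in same-numbered libraries of different groups had a mean correlation of -0.005 in VCaP and 0.055 in LAPC4. In 33 of 149 VCaP pairs and 57 of 161 LAPC4 pairs it was above 0.1, with a highest value of 0.455 and 0.597. Pairs with different numbers were not compared, so a pairing is not excluded. The replicate number was not used in the main fits. As a block it gave 0 calls for 500 nM against R1881 at 8 h (3 reported), 3 for 2 µM against R1881 at 8 h (6 reported) and 2 for 2 µM against DMSO at 8 h (4 reported) in VCaP, with 8 for R1881 at 22 h and 7 for 2 µM against R1881 at 22 h as reported.

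Of 1712 values of single members under alternatives, none changed direction while called, 80 lost and 9 gained a call, and 0 of these were for R1881 against DMSO or 2 µM against R1881 at 22 h in VCaP. Depth limits LAPC4, where 6 members had at most 6 reads in a library, and NCAM1 with R1881 in VCaP.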
